A study of Homo sapiens with 24 samples.

Results

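Simple keratins and epithelial-mesenchymal markers were followed in bladder cancer cells that had received siRNAs against FOXA1, ZBED2 or both. The group held 10 of the 58721 genes of the count table, taken by symbol: the simple keratins KRT7, KRT8, KRT18 and KRT19, the epithelial surface genes CDH1 and EPCAM, the mesenchymal genes VIM and CDH2, and the transcription factors SNAI2 and ZEB1. Of these, 7 passed the filter on low counts in RT112 and 10 passed in SCaBER, and VIM, CDH2 and ZEB1 were not tested in RT112.

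RT112 is a human bladder cancer line of the luminal papillary (LumP) subtype and SCaBER one of the basal/squamous (Ba/Sq) subtype. By the methods of the study RT112 was grown in RPMI and SCaBER in DMEM, so line and medium cannot be told apart. Each line was reverse transfected in a lipid reagent, in medium with serum, with a control siRNA (siControl), siZBED2-1, siZBED2-2, siFOXA1, siFOXA1 plus siZBED2-1, or siFOXA1 plus siZBED2-2, and each of these 12 groups held 2 libraries of 3′ RNA-seq, in which reads start near the poly-A end of a transcript. All cells, controls included, thus carried a transfected siRNA, and 1 siRNA stood for FOXA1 in every library, so a loss of FOXA1 and any other effect of that siRNA cannot be told apart. The labels name no control siRNA beside a single one. In a double knock-down the added siRNA and the mere presence of a second one thus cannot be told apart either. The 2 libraries of a group are labelled as experiment batches of 1 line, and their spread may be partly technical.

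Keratins are the intermediate filaments of epithelia and form obligate pairs of a type II chain, such as KRT7 or KRT8, and a type I chain, such as KRT18 or KRT19. The study counts KRT20, which is not in this group, among the differentiation markers high in luminal tumours, and KRT5 and KRT6 among the markers of the basal layer. E-cadherin (CDH1) holds epithelial cells together through the catenins, and EpCAM (EPCAM) is a surface adhesion glycoprotein of epithelia. In epithelial-mesenchymal transition, repressors such as Slug (SNAI2) and ZEB1 bind E-box elements in epithelial genes, and N-cadherin (CDH2) and vimentin (VIM) come up.

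Total counts ran from 4425404 to 6119210 per library, and the largest value that a count of 0 allows (3 counts) lay between 0.490 and 0.678 CPM, in which a count is divided by the library size so that libraries share one scale. These limits hold for counting error alone. FOXA1 had 180 to 257 counts without and 19 to 71 with its siRNA in RT112. In SCaBER FOXA1 had 20 and 28 counts under siControl, 1 to 28 over all libraries without its siRNA and 0 to 6 with it, so the knock-down there started from a low level. FOXA1 had 14 and 1 counts there under siZBED2-1 and 0 and 1 with both of these siRNAs. Over the 3 backgrounds (siControl and each ZBED2 siRNA) the SCaBER change of FOXA1 was -2.85 (edgeR adjusted p = 0.0087). It did not pass against siControl (adjusted p = 0.272), on siZBED2-1 (0.231) or on siZBED2-2 (0.282). Under siZBED2-1 ZBED2 fell in both lines (log2 fold change -3.97 in RT112 and -1.96 in SCaBER, edgeR adjusted p = 0.00624 and 0.00848), whereas under siZBED2-2 its change of -1.52 and -0.61 did not pass (adjusted p = 0.903 and 0.844). In RT112 siFOXA1 by itself also lowered ZBED2, from 101 and 92 counts to 27 and 7. The line markers matched the labels. Of 7 luminal markers tested all 7 were lower in SCaBER than in RT112 under siControl, and 7 of 8 basal markers were higher. Of 11 markers of immune, endothelial and fibroblast cells, CD3E, COL1A2, COL3A1, DCN, PDGFRB and PTPRC had no count under siControl in either line, and 1, the fibroblast marker LUM, made up nearly all of the summed counts (510 to 929 of 536 to 939 in the RT112 libraries without the FOXA1 siRNA).

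The promoter table (RefSeq, GRCh38.p14, 250 bases before to 50 after a start site) held entries for 4 of the 10 genes. Only the windows of KRT8, VIM and ZEB1 are described here. That of KRT8 is printed because KRT8 is the keratin whose level did not follow its partner KRT18 below. It lies on the minus strand at chr12:52926420-52926719. The window is thus inside the RefSeq span of KRT8 (chr12:52897191-52949860), away from the 5′ end of that span beside KRT18. Whether its start site is used in these cells, and its part in the level of KRT8, was not tested. The search covered both strands for the forkhead letters TGTTTAC and TGTTTGC and the E-box letters CAGGTG and CACCTG, which are reverse complements of each other. The capitals mark the 1 forkhead match, which starts 11 bases into the transcribed side.
KRT8 promoter: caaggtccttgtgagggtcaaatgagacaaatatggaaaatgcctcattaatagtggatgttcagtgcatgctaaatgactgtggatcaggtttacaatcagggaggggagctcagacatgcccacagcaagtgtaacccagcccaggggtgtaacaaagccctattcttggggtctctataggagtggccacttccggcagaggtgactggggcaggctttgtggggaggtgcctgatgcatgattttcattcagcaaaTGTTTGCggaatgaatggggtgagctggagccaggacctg
Of all 35116 promoter windows, 7.17% held a forkhead match and 20.6% an E-box. Of the 7 windows of ZEB1, 2 held an E-box and 1 held forkhead matches. The single window of VIM held neither. A match describes letters in a window and is not a binding site. KRT8 (chr12:52897191-52949860) and KRT18 (chr12:52948855-52952906) are neighbours whose RefSeq gene spans overlap by 1006 bases, so that reads from the shared stretch depend on how the counting used strand, and this was set to automatic. That stretch lies at the 5′ end of the KRT8 span, away from the poly-A end near which reads of KRT8 start.

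The first question was how the lines differed before knock-down. The gap was widest for KRT19. It had 15958 and 19821 counts in the RT112 siControl libraries and 6 in each of the SCaBER ones, a ratio of 3082 per total count with an exact 95% counting interval from 1764 to 5965. KRT7 had 6881 and 8777 counts in RT112 against 58 and 74 in SCaBER, a log2 fold change (SCaBER minus RT112) of -6.94 ± 0.23 (SE, n = 2 per group, edgeR adjusted p = 5.36e-21). RT112 thus carried KRT7 and KRT19 at levels that SCaBER did not approach in any library.

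Both lines carried KRT8 and KRT18, with a smaller gap. In CPM on a common scale KRT8 was 778 ± 72.6 (SD, n = 2) in RT112 and 406 ± 30.3 in SCaBER. KRT18 was 1196 ± 45.1 in RT112 and 741 ± 11.0 in SCaBER. The log2 differences were -0.94 ± 0.14 (SE) for KRT8 and -0.69 ± 0.13 for KRT18 (edgeR adjusted p = 1.98e-06 and 9.84e-05). The pair of RT112 libraries lay above the pair of SCaBER libraries for both genes.

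The cadherins ran the other way. CDH2 had 310 and 282 counts in SCaBER and 0 and 1 in RT112, a ratio of 573 per total count with a 95% counting interval from 102 to 22661. CDH1 was also higher in SCaBER, at 330 and 349 CPM against 214 and 256 (log2 difference 0.53 ± 0.15, edgeR adjusted p = 0.00506). The CDH1 call was lost without the first RT112 siControl library (adjusted p = 0.0972). The SCaBER libraries thus held reads of both cadherins.

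EPCAM was 193 ± 1.79 CPM in RT112 and 215 ± 5.92 in SCaBER, and the log2 difference of 0.16 had a 95% interval from -0.09 to 0.41 (edgeR adjusted p = 0.363). SNAI2 had 220 and 366 counts in RT112 and 417 and 404 in SCaBER (log2 difference 0.45, interval -0.03 to 0.92, adjusted p = 0.158). VIM had 3 and 0 counts in RT112 and 6 and 26 in SCaBER. ZEB1 had 0 and 3 against 4 and 3. Neither line thus showed VIM or ZEB1 beyond a few CPM on average. In all, 6 of the 10 genes differed between the lines, while 33.6% of the 14823 genes tested did.

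**Figure D1:**
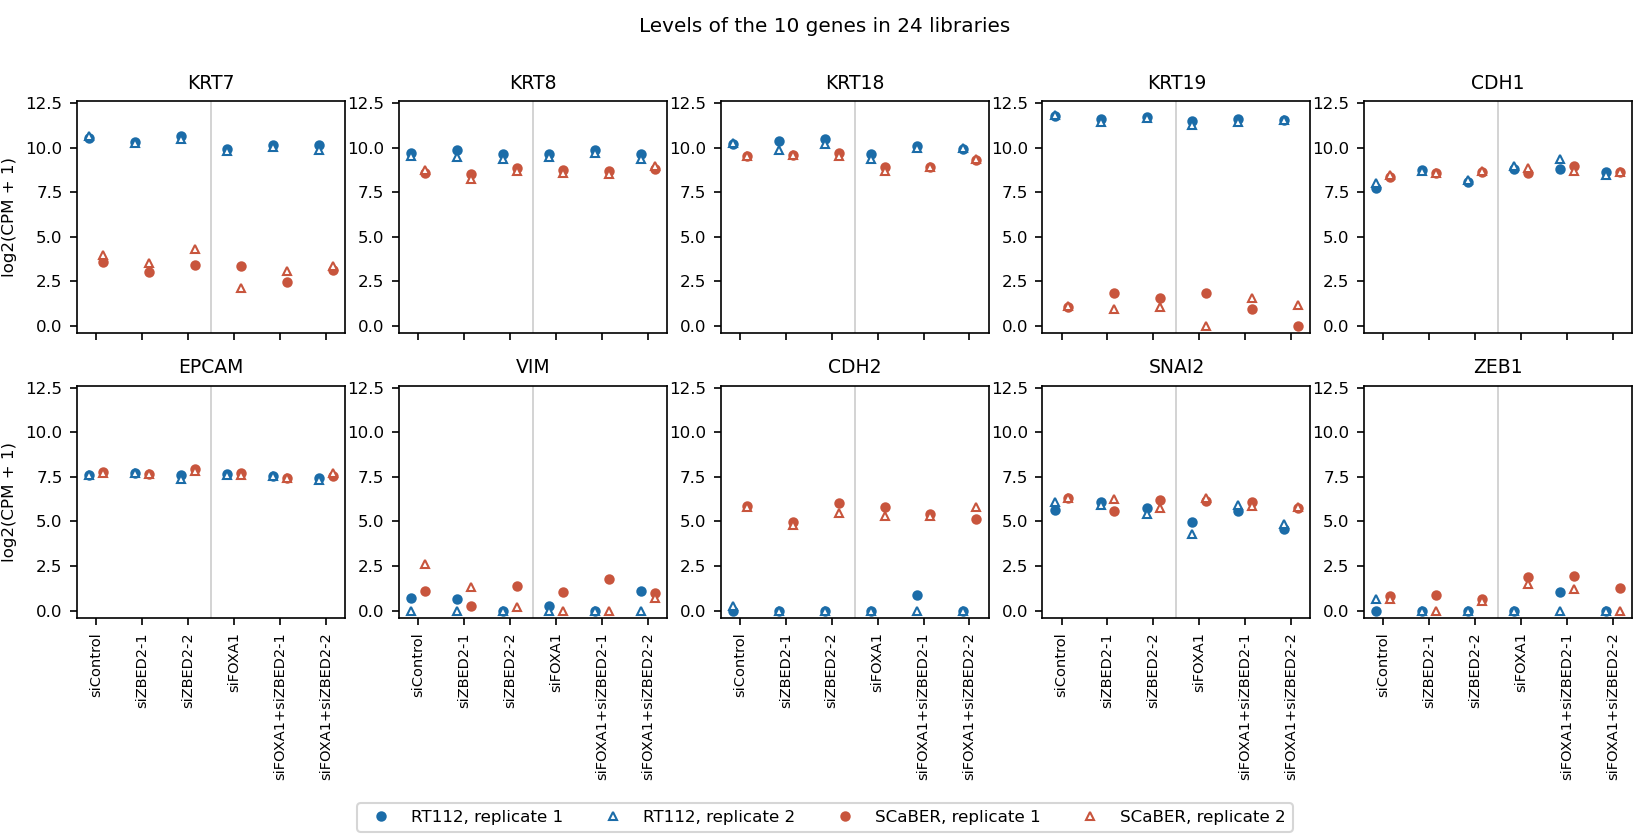
Level of each gene as log2(CPM + 1) in the 24 libraries by siRNA, on a scale common to both lines, with filled circles for replicate 1 and open triangles for replicate 2 (blue RT112, red SCaBER); the grey line parts libraries without (left) from those with (right) the FOXA1 siRNA. KRT7 and KRT19 stand far apart between the lines, KRT8, KRT18, CDH1 and EPCAM are close, CDH2 appears in SCaBER with at most 4 counts in RT112, and VIM and ZEB1 stay near 0.

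Related genes were counted between the lines in the same way, beside the 33.6% of all genes that differed. The counts of the epithelial and EMT transcription factor lists below were near that share, and no list was tested as a set. Of 15 other keratins tested, 8 were higher and 4 lower in SCaBER, with the basal keratin KRT14 at a log2 difference of 7.22 and the mucosal keratin KRT13 at -8.46. Of 11 mesenchymal effectors 5 were higher, among them the receptor kinase AXL (3.98) and the fibronectin receptor chain ITGA5 (3.55), and 2 were lower, S100A4 (-4.40) and TAGLN (-2.40). Of 20 epithelial junction and identity genes 4 were higher, led by P-cadherin CDH3 (2.72), and 4 were lower, led by the epithelial factor ELF3 (-1.53). Of 4 EMT transcription factors that could be tested (SNAI1, TCF4, TWIST1, ZEB2), only TWIST1 was called, higher in SCaBER. The medians of these lists were 1.52, 0.36, -0.07 and 3.71 on the log2 scale, beside 0 over all genes.

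The second question was what the FOXA1 siRNA did to these genes in RT112. Against siControl, KRT7, KRT18, KRT19 and SNAI2 fell and CDH1 rose, and KRT8 and EPCAM did not pass the test. That is 5 of 7 genes tested, while 23.3% of all 13264 genes passed. In such bulk libraries fewer cells that carry a transcript and less of it per cell cannot be told apart.

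KRT7 stood at 1512 and 1611 CPM under siControl and at 983 and 893 under siFOXA1. With siZBED2-1 it was 1300 and 1203 without and 1143 and 1041 with the FOXA1 siRNA, and with siZBED2-2 it was 1579 and 1405 against 1108 and 942. All 6 libraries with the FOXA1 siRNA lay below all 6 without it. The log2 fold change was -0.74 ± 0.12 (SE) against siControl (edgeR adjusted p = 6.8e-05) and -0.49 ± 0.07 over the 3 backgrounds (adjusted p = 4.13e-06). The second background gave -0.54 (adjusted p = 0.00506, but 0.123 without its second double knock-down library and 0.0584 in the fit of all 24 libraries), and the first -0.20 (adjusted p = 0.346).

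KRT18 stood at 1171 and 1224 CPM under siControl and at 797 and 640 under siFOXA1, a log2 fold change of -0.74 ± 0.14 (edgeR adjusted p = 0.000474). On siZBED2-1 it was 1301 and 927 without and 1111 and 1012 with the FOXA1 siRNA (-0.07, adjusted p = 0.837). On siZBED2-2 it was 1421 and 1162 against 983 and 1017 (-0.37, adjusted p = 0.116, and 0.0468 with the replicate number as a block). The fall was thus deepest with siFOXA1 alone, and over the 3 backgrounds it came to -0.39 ± 0.08 (adjusted p = 0.000583), with the 2 sets of 6 libraries overlapping.

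KRT19, the most counted gene of the group in RT112, went from 3507 and 3637 CPM to 2854 and 2458 (-0.43 ± 0.11, edgeR adjusted p = 0.007). On siZBED2-1 the 4 libraries spanned 2745 to 3140 CPM without and 2763 to 3110 with the FOXA1 siRNA and did not part. Its call against siControl was lost without the second siFOXA1 library (adjusted p = 0.142), and in the fit of all 24 libraries (0.109). Its change over the 3 backgrounds was -0.20 (adjusted p = 0.0178), a call lost without the first siZBED2-1, the second siFOXA1 or the second siFOXA1 plus siZBED2-1 library (up to 0.076) and in the fit of all 24 libraries (0.166).

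KRT8 was the exception among these keratins. It stood at 835 and 725 CPM under siControl and at 801 and 690 under siFOXA1, and over the 3 backgrounds its log2 change was 0.01 with a 95% interval from -0.15 to 0.17 (edgeR adjusted p = 0.968). The interval ended short of the change of KRT18 over the same libraries.

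CDH1 stood at 216 and 255 CPM under siControl and at 437 and 491 under siFOXA1. It was the only member to rise, by 0.98 ± 0.15 on the log2 scale (edgeR adjusted p = 4.44e-05). With siZBED2-1 it was 432 and 406 without and 448 and 661 with the FOXA1 siRNA, and with siZBED2-2 it was 264 and 286 against 398 and 349. The gains on these backgrounds were 0.40 and 0.44 (adjusted p = 0.0977 and 0.0776, the second 0.0293 with the replicate block). Over the 3 backgrounds the rise was 0.61 ± 0.09 (adjusted p = 6.54e-06). With limma on log2(TPM + 1) in place of counts, the rise was 0.67 against siControl and 0.32 over the 3 backgrounds, and both calls were lost (adjusted p = 0.0954 and 0.12).

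SNAI2 had 220 and 366 counts under siControl and 149 and 84 under siFOXA1, so it fell by 1.26 ± 0.27 on the log2 scale (edgeR adjusted p = 0.00108). On siZBED2-2 it went from 276 and 238 counts to 105 and 131 (-0.90, adjusted p = 0.0363). That call was lost without the first siZBED2-2 library or either double knock-down library (adjusted p up to 0.217) and with limma on log2(TPM + 1) (0.0534). On siZBED2-1 it had 341 and 268 counts without and 220 and 288 with the FOXA1 siRNA (-0.27, adjusted p = 0.584). Over the 3 backgrounds SNAI2 changed by -0.81 ± 0.15 (adjusted p = 0.000166).

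EPCAM kept between 158 and 212 CPM in all 12 RT112 libraries, and its change over the 3 backgrounds was -0.07 (interval -0.23 to 0.09, edgeR adjusted p = 0.548). VIM, CDH2 and ZEB1 had at most 5, 4 and 5 counts in any RT112 library, with or without the FOXA1 siRNA. A small rise of these mesenchymal genes was therefore not detectable at this depth.

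Of the 7 genes tested in RT112, 0 were called on siZBED2-1, where 10.3% of all genes were (1 gene at an unadjusted p under 0.05, and 0 by DESeq2). On siZBED2-2, 2 were called (KRT7 and SNAI2) beside 8.78% of all genes, and 4 with the replicate block, which added KRT18 and CDH1. Over the 3 backgrounds 5 of 7 were called beside 33.8% of all genes. Each library with the FOXA1 siRNA in RT112 also had a larger share of mitochondrial transcripts (18.6% to 22.7%) than each library without it (8.22% to 17.8%). The summed counts of the other cell type markers were lower with it (349 to 402 against 536 to 939), through LUM, which fell by 0.98 on the log2 scale. The part of either in these results was not tested.

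**Figure D2:**
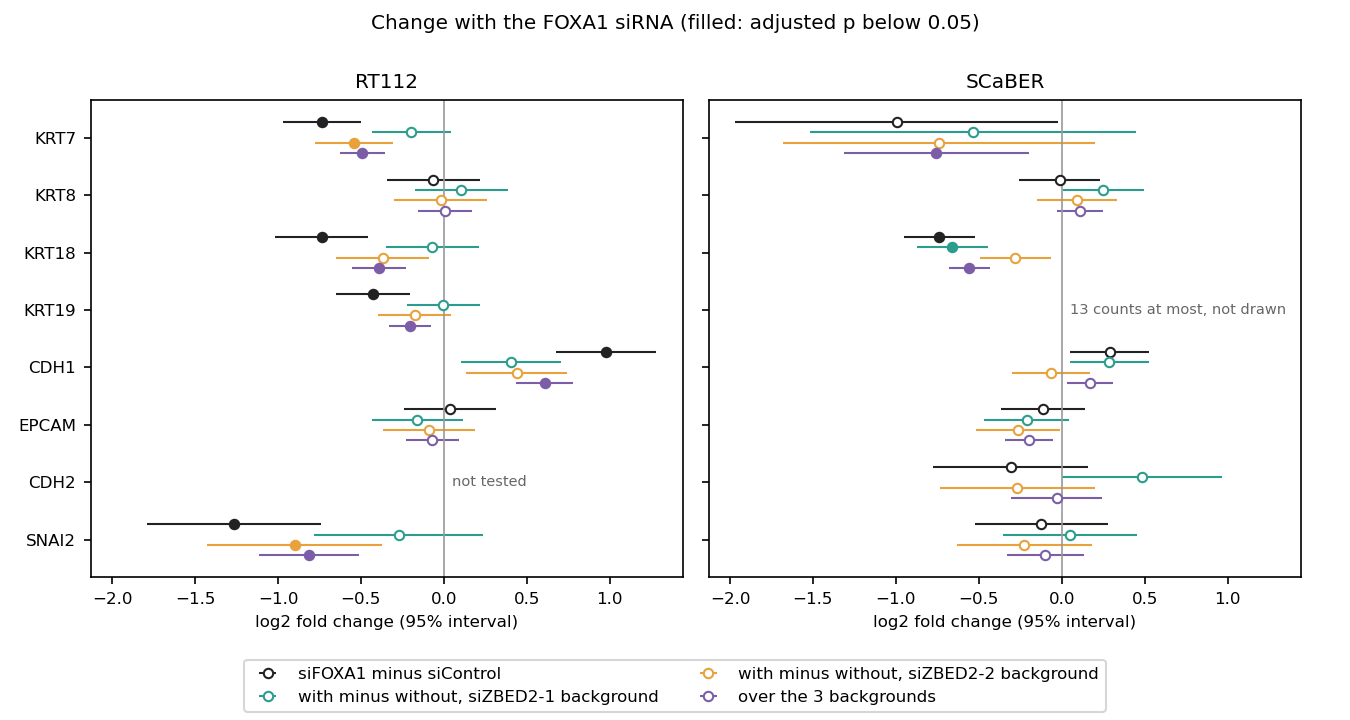
Log2 fold change with the FOXA1 siRNA and its 95% interval for 8 genes in RT112 (left) and SCaBER (right), against siControl, on each ZBED2 siRNA and over the 3 backgrounds; filled points passed an adjusted p of 0.05. KRT18 lies below 0 in both lines and KRT8 at 0, while CDH1 above 0 and SNAI2 below 0 stand out in RT112.

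In SCaBER the same siRNA called 1 of the 10 genes against siControl, KRT18, while 17.8% of the 13129 genes tested passed. KRT18 stood at 756 and 743 CPM under siControl and 483 and 416 under siFOXA1 (-0.74 ± 0.11, edgeR adjusted p = 5.49e-06). On siZBED2-1 it was 759 and 759 without and 484 and 478 with the FOXA1 siRNA (-0.66 ± 0.11, adjusted p = 0.000137). In those libraries FOXA1 had 14 and 1 counts without its siRNA and 0 and 1 with it. The part of FOXA1 in the KRT18 change was not tested. On siZBED2-2 KRT18 was 845 and 735 against 635 and 668 (-0.28, adjusted p = 0.184). All 6 libraries with the FOXA1 siRNA lay below all 6 without it, and over the 3 backgrounds KRT18 fell by 0.56 ± 0.06 (adjusted p = 2.25e-08). The call over the 3 backgrounds held in 12 of 12 fits that left out a library.

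The partner keratin KRT8 stood at 388 and 433 CPM under siControl and at 431 and 383 under siFOXA1. On siZBED2-1 it was 361 and 296 without and 410 and 372 with the FOXA1 siRNA. Those pairs did not overlap, and KRT8 was not called there. On siZBED2-2 it was 464 and 421 against 448 and 497. Over the 3 backgrounds its change was 0.11 with an interval from -0.03 to 0.25 (edgeR adjusted p = 0.284). KRT7, at 15 to 121 counts per SCaBER library, passed over the 3 backgrounds (-0.76 ± 0.28, adjusted p = 0.0492). That call was lost in 7 of 12 fits without a library (adjusted p up to 0.200), with DESeq2 (0.0599), with limma on log2(TPM + 1) (0.0773) and with no filter on low counts (0.0501). KRT19 had 0 to 13 counts and cannot be read for a change.

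The surface genes, SNAI2 and CDH2 did not pass with the FOXA1 siRNA in SCaBER by the edgeR test without the block. CDH1 stood at 333 and 353 CPM under siControl and at 377 and 462 under siFOXA1 (0.29, edgeR adjusted p = 0.1). Over the 3 backgrounds CDH1 changed by 0.17 (adjusted p = 0.0742, or 0.0406 with the replicate block). EPCAM spanned 199 to 247 CPM without and 170 to 211 with the FOXA1 siRNA, a change of -0.20 (adjusted p = 0.0531, or 0.0342 with the block). SNAI2 spanned 47.2 to 80.7 and 53.8 to 78.0 CPM (-0.10, interval -0.33 to 0.13, adjusted p = 0.607), and CDH2 26.6 to 64.8 and 35.1 to 55.5 CPM (-0.03, interval -0.30 to 0.24, adjusted p = 0.911). Neither group of 6 libraries parted from the other for these genes.

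VIM had 1 to 26 counts in the SCaBER libraries without and 0 to 13 with the FOXA1 siRNA, and ZEB1 0 to 4 and 0 to 15. Their changes over the 3 backgrounds did not pass (edgeR adjusted p = 0.648 and 0.289), and at such counts no direction is read. Over the 3 backgrounds 2 of 10 genes passed beside 24.1% of all genes, 4 with the replicate block. On siZBED2-1 1 of 10 passed beside 5.78%. On siZBED2-2 0 of 10 passed beside 3.03% (2 at an unadjusted p under 0.05, 0 by DESeq2).

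The keratin partners could be set against each other within a library, where scaling between libraries cancels. This ratio was chosen after KRT18 was seen to fall and KRT8 not to pass, so it is given as a description with no test. In SCaBER log2(KRT8 count / KRT18 count) was -0.96 and -0.78 under siControl, -1.07 and -1.36 under siZBED2-1 and -0.87 and -0.80 under siZBED2-2. With the FOXA1 siRNA it was -0.16 and -0.12 alone, -0.24 and -0.36 with siZBED2-1 and -0.50 and -0.42 with siZBED2-2. The 2 sets did not overlap. The mean rose by 0.67, from -0.97 ± 0.22 to -0.30 ± 0.15 (SD, n = 6 each).

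In RT112 the ratio was -0.49 and -0.76 under siControl and 0.01 and 0.11 under siFOXA1. It was -0.50 and -0.36 under siZBED2-1 and -0.24 and -0.30 in that double knock-down, and -0.80 and -0.84 under siZBED2-2 and -0.33 and -0.62 in the other. The sets overlapped, through the siZBED2-1 libraries and the last double knock-down. The mean rose by 0.40, from -0.62 ± 0.20 to -0.23 ± 0.26 (SD, n = 6 each). The 6 libraries of a set hold 3 treatments, so they are not plain replicates. Reads of KRT8 and KRT18 can be split with their many pseudogenes, which took at most 1.86% and 4.09% of the summed counts of gene and copies, and adding them back left the mean differences at 0.67 and 0.40.

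**Figure D3:**
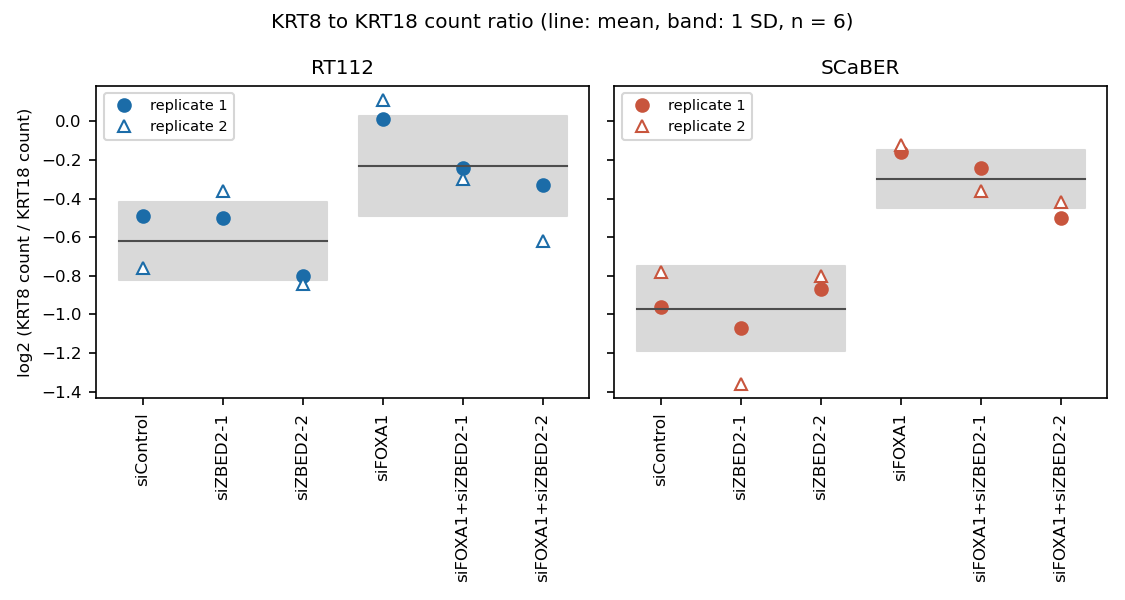
Log2 ratio of KRT8 to KRT18 counts in each library by siRNA (circles replicate 1, triangles replicate 2), with the mean and 1 SD of the 6 libraries without and the 6 with the FOXA1 siRNA. The SCaBER libraries with the siRNA all lie at -0.50 or above and those without at -0.78 or below; in RT112 the sets overlap.

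Whether the change with the FOXA1 siRNA differed between the lines was tested in the fit of all 24 libraries, over the 3 backgrounds. CDH1 and SNAI2 were called, 2 of 10 genes beside 8.11% of all genes. CDH1 changed by 0.44 less in SCaBER than in RT112 in log2 units (difference SCaBER minus RT112 -0.44 ± 0.12, edgeR adjusted p = 0.0168). SNAI2 had a difference of 0.71 ± 0.20 (adjusted p = 0.0221). The CDH1 call was lost without the second RT112 library of siFOXA1 plus siZBED2-1 (adjusted p = 0.0609) with library size alone as the scaling (0.0516), and with limma on log2(TPM + 1), where the difference was -0.23 (0.462). The SNAI2 call was lost without the second RT112 siControl library, the second RT112 siFOXA1 library or the first SCaBER siZBED2-1 library (adjusted p up to 0.0594).

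For KRT18 the line difference was -0.17 (interval -0.38 to 0.05, adjusted p = 0.419), and for KRT8 0.10 (interval -0.12 to 0.33, adjusted p = 0.731). KRT7 had a difference of -0.27 with a wide interval from -0.67 to 0.13. A difference in the keratin response between the lines was therefore not detectable here.

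Lists of related genes were counted beside the members, with no test of a list as a set. Under siFOXA1 23.3% of all genes were called in RT112 and 17.8% in SCaBER. Under siFOXA1 in RT112, 9 of 20 epithelial junction and identity genes rose and 4 fell (median log2 fold change 0.49, beside -0.01 over all genes). The tight junction claudin CLDN4 rose by 1.26, while desmoplakin DSP and plakophilin PKP3, which anchor keratin filaments at desmosomes, fell by 1.23 and 0.79. Of the 5 catenin complex genes 3 rose, led by vinculin VCL (0.76) and alpha-catenin CTNNA1 (0.42). A list of filament partners also held filament proteins, among them the lamins, which are not partners of keratins. None of its 10 genes tested rose and 5 fell, led by lamin LMNB2 (-1.67) and DSP, which is also in the epithelial list (median -0.29). Among 13 other keratins KRT81 (3.90) and KRT80 (1.71) led the 3 that rose, and KRT13 (-1.73) and KRT4 (-1.71) were the 2 that fell.

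In SCaBER 6 of the 20 epithelial genes rose under siFOXA1, among them the protease inhibitor SPINT1 (0.75), and 2 fell, ELF3 (-0.87) and the splicing factor ESRP2 (-1.01). None of the 5 catenin complex genes was called by edgeR, and 2 had an unadjusted p under 0.05. The list of filament partners and lamins again had 5 of 10 lower and 0 higher, led by the lamins LMNB2 (-1.78) and LMNB1 (-1.47). Its median was -0.75 beside -0.02 over all genes. Of 13 other keratins, KRT17 (1.48) and KRT6B (1.98) rose, and 4 fell, led by KRT15 (-1.80) and KRT86 (-2.84). KRT81 and KRT86, and KRT6A, KRT6B and KRT6C, are near-identical in sequence, so their counts are uncertain.

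Mesenchymal and TGF-beta lists did not move as a block. Their counts stand beside the same shares of all genes, 23.3% in RT112 and 17.8% in SCaBER. In RT112 1 of 9 mesenchymal effectors rose, collagen COL1A1 (3.11), and 1 fell, S100A4 (-0.85), and of 12 TGF-beta genes TGFBI (0.91) and SKIL (0.49) rose and the receptor TGFBR2 fell (-1.37). In SCaBER 3 of 11 effectors rose, led by ITGA5 (1.40) and fibronectin FN1 (1.45), and AXL fell (-0.44). Of the 12 TGF-beta genes 1 rose there and 2 fell, SMAD3 (-0.51) and SMAD2 (-0.86). None of the 4 EMT transcription factors tested in SCaBER was called by edgeR, with 0 at an unadjusted p under 0.05, and none of that list passed the filter in RT112.

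The third question was what the ZBED2 siRNAs did. In RT112 siZBED2-1 raised CDH1 from 216 and 255 to 432 and 406 CPM (0.83 ± 0.15, edgeR adjusted p = 0.000743), 1 of 7 genes tested beside 8.8% of all genes. With limma on log2(TPM + 1) the CDH1 call was lost (adjusted p = 0.150). KRT7 changed by -0.32 (adjusted p = 0.106, or 0.0474 with the replicate block, which makes 2 genes called). SNAI2 did not move with CDH1 there (0.13, interval -0.37 to 0.64, adjusted p = 0.846), and KRT18 changed by -0.10. CDH1 thus rose under siZBED2-1 and under siFOXA1, comparisons that share the siControl libraries, while SNAI2 fell in the second of them.

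Under siZBED2-2 in RT112 0 of 7 genes were called by edgeR, with 0 at an unadjusted p under 0.05 and 0 by DESeq2, beside 0.166% of all genes. CDH1 stood at 264 and 286 CPM, a change of 0.23 with an interval from -0.08 to 0.53. ZBED2 itself did not pass in that comparison.

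In SCaBER siZBED2-1 called CDH2 alone, 1 of 10 genes beside 4.65% of all genes (2 at an unadjusted p under 0.05). KRT8 was not called, at 388 and 433 CPM under siControl and 361 and 296 under siZBED2-1. CDH2 went from 310 and 282 to 149 and 145 counts (-1.03 ± 0.24, edgeR adjusted p = 0.00848). It had 265 and 170 counts under siFOXA1 and 222 and 179 with both siRNAs, where adding siZBED2-1 changed it by -0.23 (adjusted p = 0.75). The call was lost without the second siZBED2-1 library (adjusted p = 0.128), in the fit of all 24 libraries (0.158) and with limma on TPM (0.0808). CDH2 under siZBED2-2 had 351 and 277 counts (-0.08, adjusted p = 0.986), and in that comparison 0 of 10 genes were called beside 0.625% of all genes (1 at an unadjusted p under 0.05, 0 by DESeq2).

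Among related genes, siZBED2-1 raised 3 of 20 epithelial junction and identity genes in RT112, among them SPINT1 (0.97), and 2 in SCaBER, CDH3 (0.66) and PKP3 (0.48), and lowered none in either line. These and the next counts stand beside 8.8% of all genes called in RT112 and 4.65% in SCaBER, and no list was tested as a set. Of 13 other keratins 4 rose in each line, led by KRT81 (3.62) and KRT4 (1.79) in RT112 and by KRT6A (0.92) and KRT14 (0.96) in SCaBER. KRT16 fell in RT112 (-1.88). The lamin LMNA fell in both lines (-0.76 and -0.57).

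Added to siFOXA1 in RT112, siZBED2-1 raised KRT18 from 797 and 640 to 1111 and 1012 CPM (0.56 ± 0.14, edgeR adjusted p = 0.0311) and SNAI2 from 149 and 84 to 220 and 288 counts (1.13 ± 0.27, adjusted p = 0.0215). These were 2 of 7 genes beside 2.55% of all genes. ZBED2 itself, already low under siFOXA1 (27 and 7 counts), changed by -1.06 in that comparison and did not pass (edgeR adjusted p = 0.647). Both calls were lost without the second siFOXA1 library (adjusted p = 0.331 for KRT18 and 0.278 for SNAI2) and with limma on log2(TPM + 1) (0.337 and 0.214). KRT18 was also lost without the first and SNAI2 without the second library of that double knock-down, with 0.109 and 0.187. For siZBED2-2 0 of 7 were called beside 1.25% (1 at an unadjusted p under 0.05), and KRT18 changed by 0.48 (adjusted p = 0.111). With the replicate block KRT18 passed there at 0.021 and with DESeq2 at 0.0423.

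In SCaBER it was siZBED2-2 that raised KRT18 on top of siFOXA1, from 483 and 416 to 635 and 668 CPM (0.53 ± 0.11, edgeR adjusted p = 0.0025), 1 of 10 genes beside 3.66% of all genes. The call was lost without the second siFOXA1 library (adjusted p = 0.0768). ZBED2 changed by -0.85 when siZBED2-2 was added and did not pass (edgeR adjusted p = 0.366). With siZBED2-1 added it changed by -2.85 (adjusted p = 0.000537). siZBED2-1 left KRT18 at 484 and 478 CPM (0.10, adjusted p = 0.779), and 0 of 10 genes were called beside 2.73% (0 at an unadjusted p under 0.05, 0 by DESeq2). No test set the ZBED2 siRNAs against each other.

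**Figure D4:**
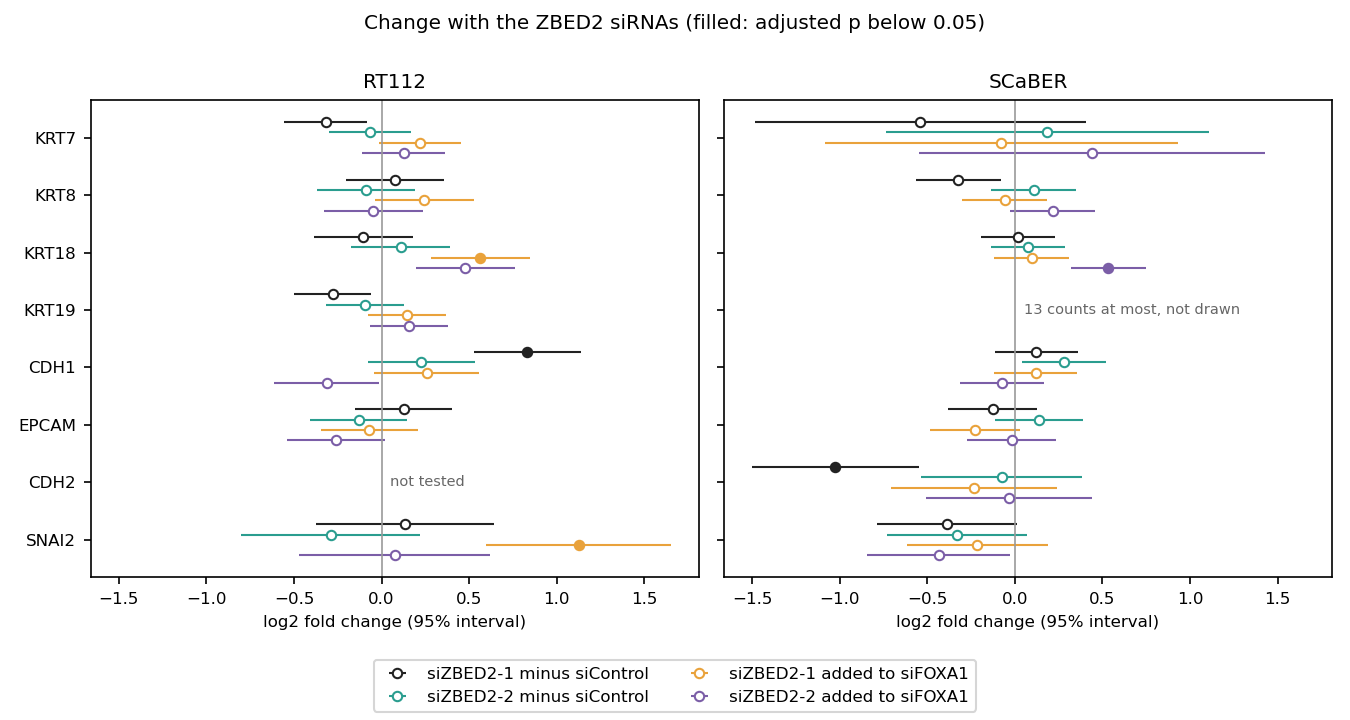
Log2 fold change with each ZBED2 siRNA and its 95% interval for 8 genes in RT112 (left) and SCaBER (right), against siControl and when added to siFOXA1; filled points passed an adjusted p of 0.05. The filled points are CDH1 (siZBED2-1), KRT18 and SNAI2 (siZBED2-1 added to siFOXA1) in RT112, and CDH2 (siZBED2-1) and KRT18 (siZBED2-2 added to siFOXA1) in SCaBER.

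Whether the change with the FOXA1 siRNA itself differed between backgrounds was tested in comparisons added after the values were seen. In RT112, siZBED2-1 against siControl background, 0 of 7 genes were called by edgeR beside 1.14% of all genes, with 5 at an unadjusted p under 0.05. KRT18 had the lowest p (0.67, adjusted p = 0.111), followed by KRT7 (0.54, adjusted p = 0.126). With the replicate block both passed (adjusted p = 0.02 and 0.0459), and with DESeq2 as well (0.0331 and 0.022). For siZBED2-2 in RT112 0 of 7 were called beside 0.098% (1 at an unadjusted p under 0.05, 0 by DESeq2).

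In SCaBER 0 of 10 genes were called for siZBED2-1 beside 1.48% of all genes (1 at an unadjusted p under 0.05, CDH2, and 0 by DESeq2). For siZBED2-2 0 of 10 were called beside 1.57% (2 at an unadjusted p under 0.05), with KRT18 at 0.46 (adjusted p = 0.155, or 0.0288 by DESeq2). Between the lines, the siZBED2-1 change was called for 0 of 10 genes beside 0.735% (1 at an unadjusted p under 0.05). That gene was CDH1 (-0.69, adjusted p = 0.129, or 0.0186 by DESeq2). The siZBED2-2 change was called for 0 of 10 genes beside 0% of all genes (0 at an unadjusted p under 0.05, 0 by DESeq2).

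The order of the 6 groups in RT112 summarises the members. KRT7 and KRT19 were highest under siControl and lowest under siFOXA1, and KRT18 was highest under siZBED2-2 and lowest under siFOXA1. CDH1 was highest with siFOXA1 plus siZBED2-1 and lowest under siControl, and SNAI2 was highest under siZBED2-1 and lowest under siFOXA1. Over the 7 genes tested in RT112, neighbours in the order overlapped in their pairs of libraries in 23 of 35 cases. Over the 6 genes of SCaBER with at least 20 CPM on average this was so in 18 of 30, and there KRT18 was again highest under siZBED2-2 and lowest under siFOXA1. Over the 12 RT112 libraries log2(CPM + 1) of KRT7 went with KRT19 (Pearson r = 0.90), with KRT18 (0.82) and against CDH1 (-0.77), and KRT8 with KRT18 at 0.35. Over the 12 SCaBER libraries KRT8 and KRT18 had r = 0.03. These values share the libraries and the siRNA groups and carry no p.

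Genes most like each member over the 12 libraries of a line, among genes of at least 20 CPM on average, were found by the same r. For KRT7 in RT112 they were PCBP2 (0.963) and TRIM28 (0.958). For KRT18 they were HIC2 (0.958) and MICALL1 (0.946) in RT112 and HMGB3 (0.966) and SMARCD1 (0.961) in SCaBER. For CDH1 in RT112 they were FAM129B (0.957) and the annexin ANXA1 (0.955), and for SNAI2 there TYSND1 (0.926) and YWHAG (0.924). For CDH2 in SCaBER they were PACSIN2 (0.894) and the fatty acid elongase ELOVL5 (0.892). These likenesses are picked as the highest of many genes and describe these libraries only.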

How the data were processed

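The authors deposited raw counts, whole numbers of 3′ reads per gene, for 24 libraries, and TPM values (scaled for length, tool not given in the sources used here). Per the deposited pipeline settings, reads were trimmed with TrimGalore 0.6.2 (minimum quality 20, minimum length 10) and aligned to hg38 and counted with STAR 2.6.1a on GENCODE 29, with automatic strandedness. The methods of the study name hg19 instead.

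Counts were tested with edgeR 4.0.16 (TMM, filterByExpr with minimum count 10 and total 15, quasi-likelihood test, Benjamini-Hochberg over all genes at 0.05). The 12 libraries of a line formed 1 fit with a mean per group (13264 genes in RT112, 13129 in SCaBER), and all 24 formed another for line differences (14823 genes). The fits were tested on simulated data. Intervals are normal ones from the fitted SE. CPM were scaled per line, or over both lines for line differences.

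The genes and lists were chosen with earlier results of these data known. Named genes were the 10 members and at most the 2 with the lowest p among those called in each direction of a list. Some genes that this rule names are not reported here. A replicate number stands for an experiment batch in the labels and so pairs libraries. Deviations of equal numbers, taken over all genes tested, had a mean correlation of 0.034 in RT112 and 0.026 in SCaBER, with 0 of 15 group pairs over 0.1 in either line. A single gene can still follow the replicate number. KRT8 was higher in replicate 1 in every RT112 group (835 and 725 CPM under siControl), while its order was mixed in SCaBER (388 and 433 under siControl, 361 and 296 under siZBED2-1). The main tests did not use the pairing, and the replicate block was run as an alternative.

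Alternatives were other size factors, no filter, DESeq2 1.42.0, limma 3.58.1 on log2(TPM + 1), the replicate block, the fit of all 24 libraries and leaving out each library. Coordinates and promoters came from RefSeq on GRCh38.p14.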

Additional observations from a re-analysis of the deposited data

Results flagged for a closer look

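Tests of the difference between the lines picked out 2 genes. For CDH1 the change with the FOXA1 siRNA over the 3 backgrounds differed by -0.44 on the log2 scale between SCaBER and RT112 (edgeR adjusted p = 0.0168), with changes of 0.61 in RT112 and 0.17 in SCaBER in the fits of each line. For SNAI2 the difference was 0.71 (edgeR adjusted p = 0.0221), with changes of -0.81 in RT112 and -0.10 in SCaBER. FOXA1 itself had 192 and 225 counts under siControl in RT112 and 20 and 28 in SCaBER, and its part in these differences was not tested.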

How the results depend on the processing

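No result changed sign while called. The number of members called in these alternatives moved by over 1.5 times as follows. With no filter on low counts it was 4 for the FOXA1 siRNA on siZBED2-2 in RT112, 1 for siZBED2-2 added to siFOXA1 in RT112, 1 over the 3 backgrounds in SCaBER, 1 for the line difference of the siZBED2-1 change and 1 for the background difference with siZBED2-1 in RT112. With the replicate block it was 4, 1 and 4 in the first 3 of these, 2 for siZBED2-1 in RT112 and 2 for the background difference, and the block changed no other call. With DESeq2 it was 2 for siZBED2-1 and 2 for the background difference with siZBED2-1 in RT112, and 1 each for siZBED2-2 added to siFOXA1 in RT112, the background difference with siZBED2-2 in SCaBER and the line difference of the siZBED2-1 change. In the fit of all 24 libraries it was 1 for the FOXA1 siRNA on siZBED2-2 in RT112, 2 for siFOXA1 in SCaBER and 0 for siZBED2-1 in SCaBER. With limma on log2(TPM + 1) it was 1 for the FOXA1 siRNA on siZBED2-2 in RT112, 0 for siZBED2-1 in either line and for siZBED2-1 added to siFOXA1 in RT112, and 1 for the line difference of the FOXA1 siRNA change, which was also 1 with library size alone. The causes were not tested.

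Leaving out 1 library gave ranges of 0 to 1 (RT112, FOXA1 siRNA on siZBED2-1), 0 to 3 (on siZBED2-2), 0 to 2 (siZBED2-1 added to siFOXA1) and 0 to 1 (siZBED2-2 added). In SCaBER they were 1 to 3 (siFOXA1), 1 to 4 (3 backgrounds), 0 to 1 (siZBED2-1) and 0 to 1 (siZBED2-2 added to siFOXA1). They were 1 to 3 for the line difference of the FOXA1 siRNA change and 0 to 2 for the background difference with siZBED2-1 in RT112. The rise of the KRT8 to KRT18 ratio lay within 0.33 and 0.47 for RT112 and within 0.59 and 0.71 for SCaBER when a library was left out.

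Library size alone shifted the median of all genes under siFOXA1 in RT112 to -0.111 and TPM to -0.261, with 38.6% and 18.3% of called genes higher. With 2 libraries a group, and under 30 counts for VIM, ZEB1 and KRT19 in SCaBER, small changes were not detectable.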
